A study of Rattus norvegicus with 12 samples.

Results

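Neuropeptide processing enzymes and granins were examined in the dorsal striatum of rats with a lesion of the nigrostriatal dopamine pathway. The 9 genes were Pcsk1, Pcsk2, Cpe, Pam, Chga, Chgb, Scg2, Scg3 and Scg5, and every probe of the array that carried the name of one of them was taken, whatever its signal. The names in the files gave 13 probes of 8 genes. Both probes of Scg5 are listed under its older symbol, Sgne1, and were found through their transcript accession, which brought the total to 15 probes of 9 genes out of 41012 probes and 35608 genes. All 15 probes passed the filter on dim probes, so that all 9 genes were among the 20408 tested.

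Each of 12 male rats was measured on 1 single-colour array, in 4 groups of 3, and all of them had received 9 µg of 6-OHDA, a toxin of dopamine neurons, in the left substantia nigra. The 6-OHDA group had the lesion without further treatment, and in the DOPA group it was followed by 19 days of L-DOPA, the precursor of dopamine, at 25 mg/kg with 12.5 mg/kg of benserazide in 2 daily injections, a schedule described as inducing dyskinesia. The HFS group received high frequency stimulation of the subthalamic nucleus on the side of the lesion for 5 days (130 Hz, pulse width 80 µs, 60 µA), and the DOPA/HFS group received L-DOPA with stimulation during its last 5 days. The HFS and DOPA/HFS rats had an electrode implanted under anaesthesia after the lesion, and no implant is described for the 6-OHDA and DOPA rats. Implantation and stimulation therefore cannot be told apart. Stimulated rats were killed as soon as the stimulation stopped and L-DOPA-treated rats an injection interval after the last dose, tissue punches of a rat were pooled, an unlesioned group was not analysed here, and strain and age are not given in the sources used here.

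Neuropeptides are made as large precursors that are cut and modified while they travel through the regulated secretory pathway. The convertases PC1/3 and PC2, encoded by Pcsk1 and Pcsk2, cut the precursor after paired basic residues, carboxypeptidase E (Cpe) trims these residues from the new ends, and peptidylglycine alpha-amidating monooxygenase (Pam) amidates the peptides that need it. The granins chromogranin A (Chga), chromogranin B (Chgb), secretogranin II (Scg2) and secretogranin III (Scg3) are acidic proteins of the dense-core vesicle that take part in packing its cargo, and some are themselves peptide precursors, while 7B2 (Scg5) is the chaperone that PC2 needs to mature. In the striatum this machinery serves the projection neurons, which make enkephalin, dynorphin and substance P, as well as peptide-releasing interneurons.

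Scg2, Pcsk2 and Chgb were the members with an unadjusted p under 0.05 in at least 1 comparison, and their promoters are shown so that the 3 genes can be set beside each other at the level of sequence. The windows run from 250 bases before to 50 bases after the start of the gene and come from RefSeq on the rat assembly GRCr8, at chr9:88256817-88257116 on the minus strand for Scg2, chr3:151333688-151333987 on the plus strand for Pcsk2 and chr3:140496462-140496761 on the plus strand for Chgb. Capitals mark the cAMP response element, searched on both strands as its 5-base core TGACG and as the full palindrome TGACGTCA, in which the 5-base cores of both strands overlap.
Scg2: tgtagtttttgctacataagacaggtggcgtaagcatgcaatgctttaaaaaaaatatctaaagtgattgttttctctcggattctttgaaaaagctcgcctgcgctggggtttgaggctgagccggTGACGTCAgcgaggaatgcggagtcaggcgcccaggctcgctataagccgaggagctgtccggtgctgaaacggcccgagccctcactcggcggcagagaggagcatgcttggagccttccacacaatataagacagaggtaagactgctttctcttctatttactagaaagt
Pcsk2: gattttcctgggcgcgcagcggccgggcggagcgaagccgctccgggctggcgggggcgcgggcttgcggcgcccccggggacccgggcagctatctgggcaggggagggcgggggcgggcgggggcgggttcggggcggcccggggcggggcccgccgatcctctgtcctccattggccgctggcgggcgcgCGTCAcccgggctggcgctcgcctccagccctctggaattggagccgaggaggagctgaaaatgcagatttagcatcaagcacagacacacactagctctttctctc
Chgb: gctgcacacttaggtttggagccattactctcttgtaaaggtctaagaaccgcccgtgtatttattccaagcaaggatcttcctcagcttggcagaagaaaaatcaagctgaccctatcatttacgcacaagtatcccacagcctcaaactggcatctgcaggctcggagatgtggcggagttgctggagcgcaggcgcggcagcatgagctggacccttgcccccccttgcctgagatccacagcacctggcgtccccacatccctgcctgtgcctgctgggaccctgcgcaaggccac

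The full palindrome was found in the window of Scg2, at positions -123 to -116 from the gene start, and in none of the other windows of the family. Of all 33469 promoter windows of the same length, 1.83% hold it. Windows were at hand for 7 of the 9 genes, and 6 of these 7 hold the 5-base core on either strand, against 21.2% of all windows. In Pcsk2 the 5-base core lies on the opposite strand at positions -57 to -53, and in the window of Chgb these letters do not occur. These matches are a description of the letters, and the arrays did not measure binding of any factor.

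The arrays were compared before the genes were. Each of 3 slides carried 1 array of every group, always with the same group at the same position, so that position and treatment cannot be told apart. Spots well above background made up 53.8% to 58.9% of a 6-OHDA array, 50.5% to 58% in DOPA, 60.3% to 63.2% in HFS and 60% to 62.8% in DOPA/HFS. The array DOPA/HFS 3 stood apart with 4175 outlier spots, against 2 to 25 on each other array, and these spots were left out. The array DOPA/HFS 1 stood apart in another way, as its log2 signal for Trh was 7.82 against 10.50 and 11.03 on the other DOPA/HFS arrays and 8.00 to 8.07 on the 6-OHDA arrays. Values of Scg2, Pcsk2, Chgb and the listed genes that involve DOPA/HFS are therefore also given without 1 or both of these arrays.

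None of the 9 genes passed the test in any of the 6 comparisons. Passing required a fold over 1.2 or under 0.8 and, in limma, a p under 0.1 after Benjamini-Hochberg adjustment over all genes tested. Over all genes the share called was 0% for HFS, 0.0049% for DOPA and 0% for DOPA/HFS against 6-OHDA. It was 0.0049% for the L-DOPA main effect, which sets the 6 arrays with L-DOPA against the 6 without it. It was 0% for the corresponding HFS main effect and 0% for the interaction, which asks whether the L-DOPA difference depends on stimulation. The single gene called was Igsf5 in both cases, so the absence of calls among the members is what nearly all genes showed at 3 arrays per group. At an unadjusted p under 0.05 in limma, 1 member was lower in HFS (Chgb), 2 were higher in DOPA (Scg2 and Pcsk2), 1 was higher in DOPA/HFS (Scg2), 1 was higher for the L-DOPA main effect (Scg2), and 0 were past it for the HFS main effect or the interaction. Under alternative settings Chgb passed this limit for the HFS main effect, and Pcsk2, Scg2, Pcsk1 and Chga each passed it for the interaction in at least 1 of them. The shares of all genes past that limit in the same direction were 1.14%, 1.32%, 0.828% and 1.24%, and in either direction 4.36% for the HFS main effect and 1.98% for the interaction. The members' counts are too small to be read against these shares, and the 3 comparisons with 6-OHDA share its 3 arrays.

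The median log2 difference of the 9 members was 0.15 in DOPA, 0.12 in HFS and 0.07 in DOPA/HFS, beside medians of -0.01, 0.01 and -0.01 over all genes. Of the 9 members, 6 lay above 0 in HFS and 5 in each of the other comparisons with 6-OHDA, where 51.5% of all genes did for HFS, 47.7% for DOPA and 47.6% for DOPA/HFS. The members' differences ran from -0.33 to 0.97 in DOPA, from -0.40 to 0.28 in HFS and from -0.17 to 0.61 in DOPA/HFS, with standard errors between 0.14 and 0.24. In each comparison the members thus lay on both sides of 0. Since whole tissue was used, fewer cells that make a transcript and less transcript per cell cannot be told apart.

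**Figure D1:**
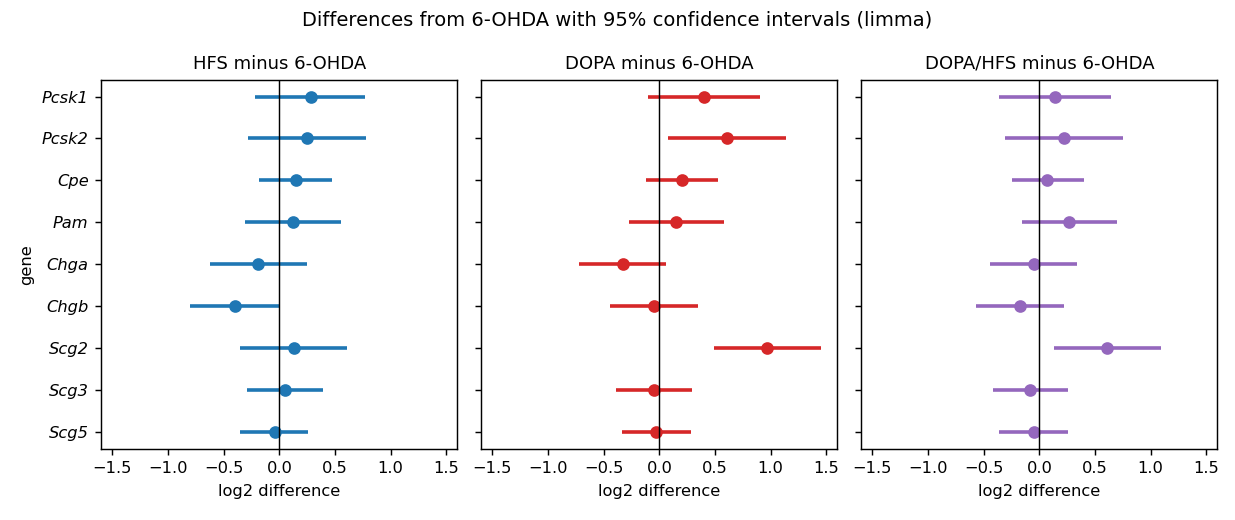
Log2 difference of each of the 9 genes from the 6-OHDA group (x axis) after each of the treatments (panels), with points for the limma estimate and bars for its 95% confidence interval. The intervals of Scg2 and Pcsk2 in DOPA, of Scg2 in DOPA/HFS and of Chgb in HFS stop short of 0 or end at 0.00, and the intervals of the other genes cross it.

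Secretogranin II, which like Chgb, Cpe and Pam had only 1 probe to go by, showed the largest difference among the members. Its log2 signal was 11.95, 11.72 and 12.20 on the 6-OHDA arrays and 12.96, 13.01 and 12.81 on the DOPA arrays. All DOPA arrays lay above all 6-OHDA arrays, which was also the case, in the same direction, for 3.17% of all genes. The difference was 0.97 ± 0.22 (SE, n = 3 against 3), a fold of 1.96 with a 95% confidence interval of 1.4 to 2.73. In limma the unadjusted p was 0.000978, which placed Scg2 at rank 20 of 20408 genes, and the adjusted p was 0.968. An exact two-sided permutation test gave p = 0.1, the smallest value that 3 arrays against 3 allow. Within slides the DOPA array exceeded the 6-OHDA array by 1.01, 1.29 and 0.61, so that the direction was shared by all 3 slides.

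In the other groups Scg2 lay lower than in DOPA. The HFS arrays gave 11.88, 11.96 and 12.41, a range that overlaps with that of 6-OHDA, and the difference was 0.13 ± 0.22 (SE), with an interval of -0.35 to 0.61. The DOPA/HFS arrays gave 12.31, 13.00 and 12.39. All 3 lay above the 6-OHDA arrays, as held for 2.05% of all genes, but 2 of them were below the highest HFS array. The DOPA/HFS difference from 6-OHDA was 0.61 ± 0.22 (SE), a fold of 1.53, with an unadjusted p of 0.017 and an adjusted p of 1 in limma. It became 0.39 without DOPA/HFS 2, 0.74 without DOPA/HFS 1 and 0.70 without DOPA/HFS 3, and the unadjusted p was no longer under 0.05 without DOPA/HFS 2, without 6-OHDA 2, or with outlier spots kept, which gave 0.53 ± 0.25 (SE). Ordered by mean log2 signal, Scg2 ran from 11.96 ± 0.24 (SD, n = 3) in 6-OHDA over 12.08 ± 0.29 in HFS and 12.57 ± 0.38 in DOPA/HFS to 12.92 ± 0.10 in DOPA. Each neighbouring pair in that order overlaps in its arrays.

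Taken over both stimulation states, Scg2 averaged 12.75 on the 6 arrays with L-DOPA and 12.02 on the 6 without it. The L-DOPA main effect was 0.73 ± 0.15 (SE), a fold of 1.65 with an interval of 1.31 to 2.09, at an adjusted p of 0.482 in limma. The exact two-sided permutation test within stimulation states gave p = 0.015, where 400 splits allow no value under 0.005. Without DOPA/HFS 1 the effect was 0.79 and without DOPA/HFS 3 it was 0.77. Among the stimulated rats the DOPA/HFS array exceeded the HFS array of its slide by 0.43 and 1.04 on the slides 1 and 2 and differed by -0.03 on the third. The interaction was -0.49 ± 0.31 (SE) with an interval of -1.16 to 0.19 and an adjusted p of 1 in limma, so whether stimulation alters the L-DOPA difference of Scg2 was not resolved here. Leaving out single arrays moved the estimate between -0.70 and -0.32. It was -0.70 ± 0.27 (SE) without DOPA/HFS 2, where the unadjusted p passed under 0.05, -0.32 without HFS 3, -0.36 without DOPA/HFS 1 and -0.40 without DOPA/HFS 3.

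The other granins lay closer together. Chromogranin B gave 16.88, 16.60 and 16.49 in 6-OHDA and 16.07, 16.56 and 16.13 in HFS. HFS 1 and HFS 3 lay below every 6-OHDA array, whereas HFS 2 lay within their range. The difference was -0.40 ± 0.18 (SE), a fold of 0.758, with an unadjusted p of 0.0486 and an adjusted p of 0.998 in limma, and the exact two-sided permutation p was 0.2. Within slides the differences were -0.81, -0.03 and -0.36, so that slide 2 showed next to none. In DOPA, Chgb was at 16.60, 16.59 and 16.64 and differed from 6-OHDA by -0.05 ± 0.18 (SE). In DOPA/HFS it was at 16.38, 16.76 and 16.30, a difference of -0.17 ± 0.18 (SE). The HFS main effect was -0.26 ± 0.13 (SE) at an exact two-sided permutation p of 0.06. It was -0.24 without DOPA/HFS 1 and -0.22 without DOPA/HFS 3. Its unadjusted p in limma passed under 0.05 with scaling to the 75th percentile (-0.41), normexp (-0.34) and the deposited log2 table (-0.34), and without 6-OHDA 3 (-0.30), HFS 2 (-0.34) or DOPA/HFS 2 (-0.33).

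Chromogranin A was measured by a pair of probes that disagree. On the brighter probe the log2 signal was 12.65, 12.74 and 12.25 in 6-OHDA, 12.21, 12.16 and 12.26 in DOPA and 12.26, 12.73 and 12.50 in DOPA/HFS, while in HFS it was 12.46 and 12.26, since the spot of HFS 3 was an outlier and the fit used 2 arrays there. Its difference from 6-OHDA was -0.33 ± 0.18 (SE) in DOPA, -0.19 ± 0.20 in HFS and -0.05 ± 0.18 in DOPA/HFS. The second probe, measured on all 12 arrays, gave -0.04, 0.23 and 0.22 in the same order (DOPA, HFS, DOPA/HFS), each with a standard error of 0.19. The probes thus differ in sign in HFS and DOPA/HFS, and no direction is given for Chga.

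Secretogranin III, which binds granin aggregates to the vesicle membrane, was represented by 3 probes. The brightest gave 15.09 to 15.27 in 6-OHDA, 15.05 to 15.24 in DOPA, 15.09 to 15.32 in HFS and 14.83 to 15.35 in DOPA/HFS. Its differences were -0.05 in DOPA, 0.05 in HFS and -0.08 in DOPA/HFS, each with a standard error of 0.15, and all groups overlap. In DOPA/HFS a second probe gave 0.36 ± 0.18 (SE), and the third probe gave 0.22 ± 0.18. On the second probe all DOPA/HFS arrays (9.82, 9.94 and 9.78) lay above the 6-OHDA arrays (9.52, 9.37 and 9.56), as held for 2.05% of all genes. The sign in DOPA/HFS therefore depends on the probe.

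Among the convertases, Pcsk2 was the member with the second largest difference in DOPA. Its log2 signal was 11.94, 11.48 and 12.42 in 6-OHDA and 12.37, 12.70 and 12.62 in DOPA. DOPA 1 lay below 6-OHDA 3, so the groups overlap. The difference was 0.61 ± 0.24 (SE), a fold of 1.53 with an interval of 1.06 to 2.21, at an unadjusted p of 0.0268 and an adjusted p of 1 in limma, and the exact two-sided permutation p was 0.2. The second probe of Pcsk2 gave 0.57 ± 0.21 (SE), so that both probes place DOPA higher by a similar amount. Within slides the differences were 0.43, 1.22 and 0.20, and without 6-OHDA 2, the lowest array, the estimate was 0.38.

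Pcsk2 gave 11.96, 12.22 and 12.41 in HFS and 12.46, 11.89 and 12.16 in DOPA/HFS, differences of 0.25 ± 0.24 and 0.22 ± 0.24 (SE) from 6-OHDA. Both groups overlap with 6-OHDA and with each other. The order of the group means was 11.95 ± 0.47 (SD, n = 3) in 6-OHDA, 12.17 ± 0.28 in DOPA/HFS, 12.20 ± 0.23 in HFS and 12.56 ± 0.17 in DOPA. The interaction was -0.64 ± 0.34 (SE), with an interval of -1.39 to 0.11 and an adjusted p of 1 in limma, and leaving out single arrays moved it between -0.88 and -0.41. It was -0.41 without 6-OHDA 2. The unadjusted p passed under 0.05 without 6-OHDA 3 (-0.88), without DOPA/HFS 1 (-0.79) and in the deposited log2 table (-0.80).

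The PC1/3 gene Pcsk1 gave 7.53, 6.73 and 7.02 in 6-OHDA, 7.35, 7.55 and 7.20 in HFS, 7.21, 7.66 and 7.59 in DOPA and 6.98, 7.51 and 7.20 in DOPA/HFS. All groups overlap. Its differences from 6-OHDA were, in the order of those treatments, 0.28, 0.40 and 0.14 with a standard error of 0.23 each, and its second probe gave 0.40, 0.39 and 0.40 with standard errors of 0.38, 0.38 and 0.42, without a value on DOPA/HFS 3. On slide 1 the DOPA array lay below the 6-OHDA array (-0.31) and on slide 2 above it (0.94).

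The PC2 chaperone gene Scg5 gave 16.79 to 16.99 in 6-OHDA, 16.80 to 17.03 in DOPA, 16.72 to 16.99 in HFS and 16.72 to 16.99 in DOPA/HFS. Its differences were -0.03 in DOPA, -0.04 in HFS and -0.05 in DOPA/HFS, each with a standard error of 0.14. This probe was saturated on HFS 2, DOPA 2, DOPA/HFS 2 and DOPA/HFS 3, where its signal is a lower bound. The second probe, which was not saturated on any array but has no value on DOPA/HFS 3, gave -0.05 ± 0.19, 0.08 ± 0.19 and 0.29 ± 0.22 (SE) in the same order. The sign in HFS and in DOPA/HFS therefore depends on the probe here as well.

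The enzymes that finish the peptide showed small differences. Cpe gave 15.42, 15.21 and 15.47 in 6-OHDA and 15.49, 15.52 and 15.53 in HFS, so that the groups do not overlap, as was the case in the same direction for 2.8% of all genes. The gap between the groups was narrow, the difference was 0.15 ± 0.15 (SE) and the unadjusted p was 0.345 in limma. In DOPA it gave 15.63, 15.39 and 15.68 and in DOPA/HFS 15.62, 15.48 and 15.22, with differences of 0.20 ± 0.15 and 0.07 ± 0.15. Pam gave 14.25, 13.98 and 14.69 in 6-OHDA, a wider range than the 14.43 to 14.50 of DOPA, the 14.28 to 14.56 of HFS or the 14.41 to 14.88 of DOPA/HFS. Its differences were 0.15 in DOPA, 0.12 in HFS and 0.27 in DOPA/HFS, each with a standard error of 0.19, and the intervals reach to folds of 1.5, 1.47 and 1.63.

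**Figure D2:**
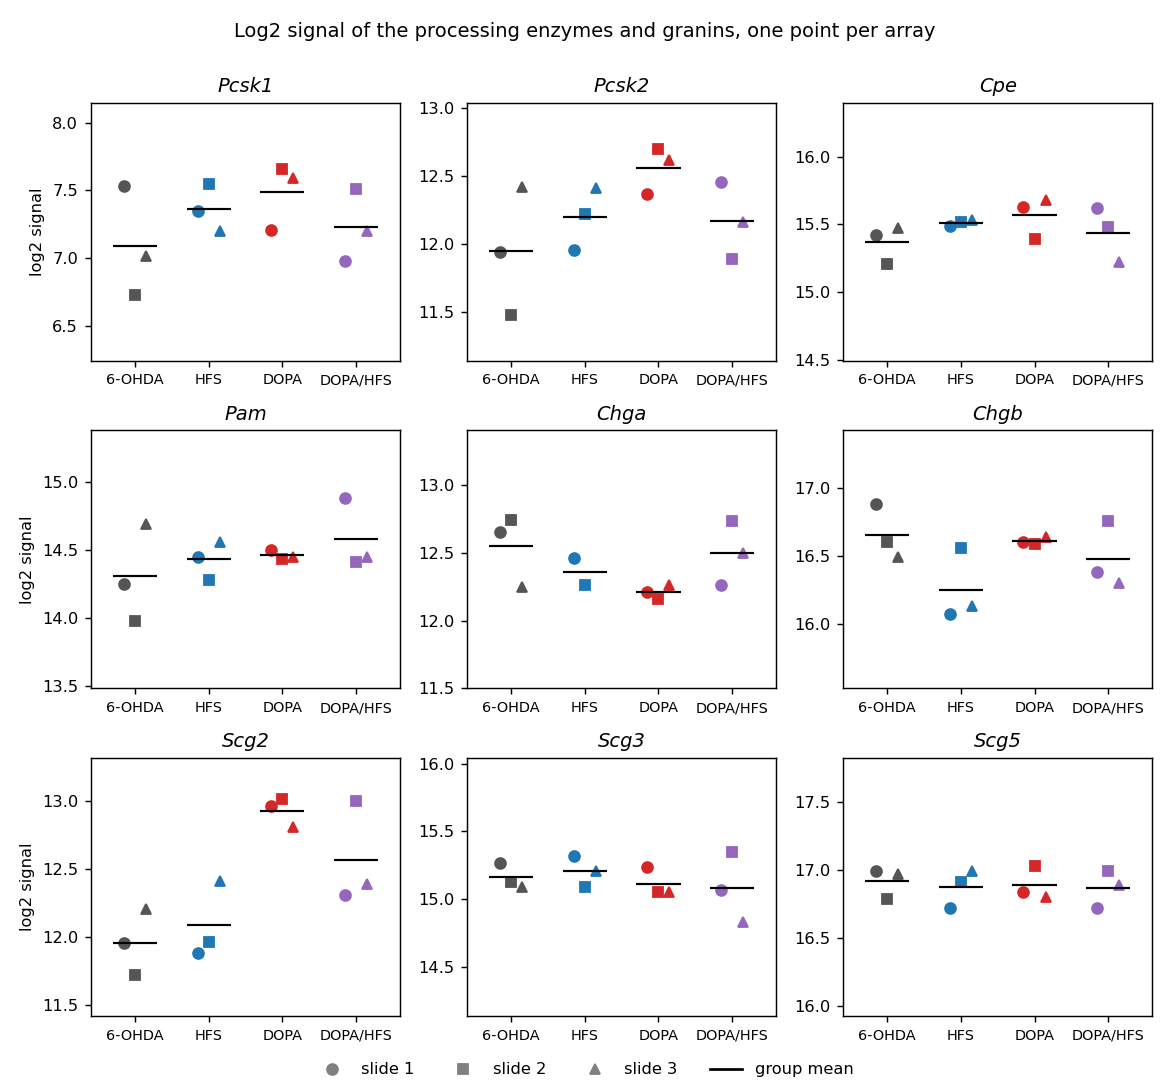
Log2 signal (y axis, quantile normalised, 1.9 log2 units in every panel) of each gene in the 4 groups (x axis), with 1 point per array shaped by slide and a bar for the group mean. Scg2 is the gene in which the 3 DOPA arrays, at 12.81 to 13.01, lie above all 6-OHDA and HFS arrays, while the groups of Scg3 and Scg5 cover much the same range.

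**Figure D3:**
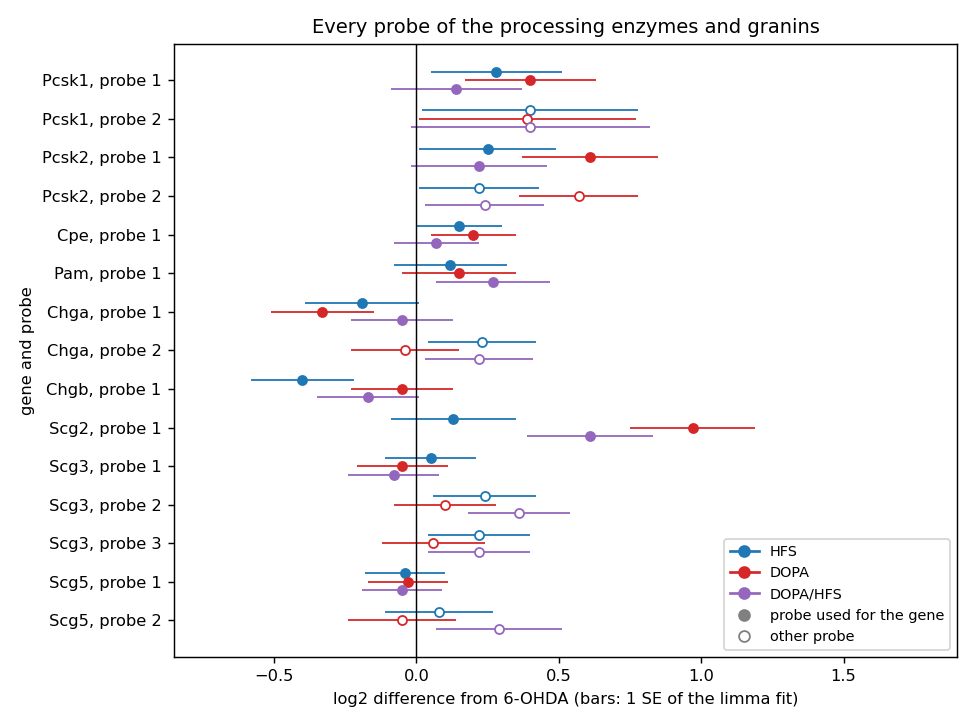
Log2 difference from 6-OHDA (x axis) for each of the 15 probes in HFS, DOPA and DOPA/HFS, with bars of 1 SE of the limma fit over all probes and filled points for the probe that stands for its gene. Both probes of Pcsk2 place DOPA higher, at 0.61 and 0.57, whereas the probes of Chga, Scg3 and Scg5 fall on both sides of 0 in DOPA/HFS.

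The precursors that these enzymes process were described from a list of 16 genes, all of which were tested. None was called with all arrays. At an unadjusted p under 0.05 in limma, 3 were higher in DOPA (Trh, Pdyn and Nts), 2 in DOPA/HFS (Trh and Pdyn), 1 in HFS (Tac1) and 4 for the L-DOPA main effect (Trh, Pdyn, Nts and Tac3), and none was lower. Over all genes the shares past that limit in the higher direction were 1.32%, 0.828%, 1.21% and 1.24%. The list's median difference was 0.01 in the HFS comparison, 0.12 in DOPA and 0.11 in DOPA/HFS.

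Pdyn, the dynorphin precursor of the direct pathway neurons, gave 14.53, 14.83 and 14.74 in 6-OHDA and 16.09, 16.21 and 15.98 in DOPA, a difference of 1.39 ± 0.28 (SE). Trh, the precursor of thyrotropin-releasing hormone, gave 8.00, 8.07 and 8.04 in 6-OHDA and 10.77, 10.75 and 10.61 in DOPA, a difference of 2.67 ± 0.61 (SE). For Nts, the neurotensin precursor, the difference was 0.66 ± 0.25 (SE). In DOPA the arrays of these 3 precursors and of Scg2 did not overlap with 6-OHDA, as held in the same direction for 3.17% of all genes. Penk, the enkephalin precursor, differed by 0.09 ± 0.21 (SE) in DOPA, and its 6-OHDA and DOPA arrays overlap.

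In DOPA/HFS the arrays of a precursor lay far apart. Pdyn was at 14.68, 15.87 and 15.81, Trh at 7.82, 10.50 and 11.03 and Nts at 10.58, 11.37 and 11.45, so that DOPA/HFS 1 was the lowest array of each and lay within or below the range of 6-OHDA. Scg2, at 12.31, 13.00 and 12.39, was also lowest on DOPA/HFS 1 but above every 6-OHDA array there.

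The DOPA/HFS differences of Trh and Pdyn came from the arrays DOPA/HFS 2 and DOPA/HFS 3 and were lowered by DOPA/HFS 1. DOPA/HFS 1 had been singled out by its low Trh, and Pdyn was low there too, so leaving it out favours a call of both genes. The calls without it are therefore no separate support for either gene. Without DOPA/HFS 1, an alternative chosen after seeing the data, Trh was called in DOPA/HFS at 2.73 ± 0.18 (SE) with an adjusted p of 0.000535 in limma. With all arrays Trh gave 1.75 ± 0.61. Pdyn gave 1.14 without DOPA/HFS 1 against 0.76 with all arrays. For the L-DOPA main effect 2 of the 16 precursors were then called, Trh at 2.86 ± 0.12 (SE, adjusted p 7.12e-06 in limma) and Pdyn at 1.30 ± 0.12 (SE, adjusted p 0.00222 in limma), where all arrays gave 2.37 and 1.11. Without DOPA/HFS 3 none was called, 0 of the 16 had an unadjusted p under 0.05 in DOPA/HFS, where Trh gave 1.13 and Pdyn 0.58, and 2 had one in the higher direction for the L-DOPA main effect (Pdyn and Trh).

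**Figure D4:**
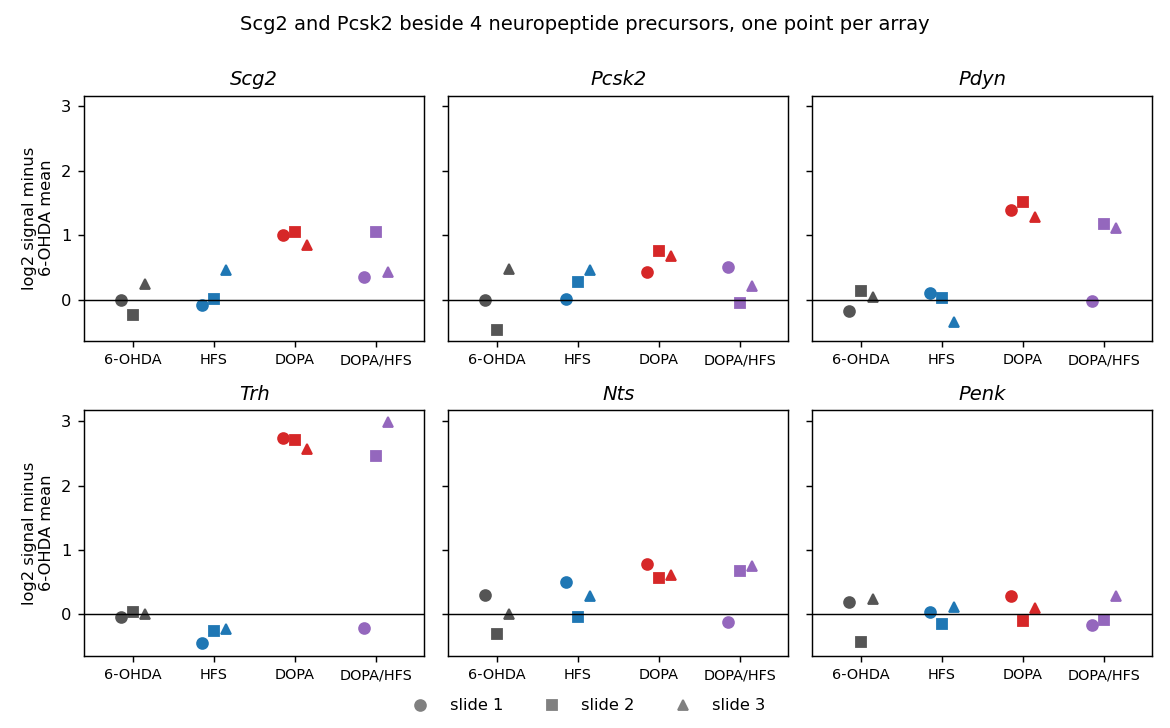
Log2 signal of each array minus the mean of the 6-OHDA arrays (y axis) for Scg2, Pcsk2 and 4 neuropeptide precursors in the 4 groups (x axis), with points shaped by slide. On DOPA/HFS 1 Pdyn and Trh lie at or below the 6-OHDA level, at 14.68 and 7.82, whereas the DOPA arrays of Scg2, Pdyn, Trh and Nts all lie above 0.

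Other genes of the secretory pathway were described in the same way. Of 6 tested convertases outside the family (Furin, Pcsk4, Pcsk5, Pcsk6, Pcsk7 and Mbtps1), 0 were called and 0 passed an unadjusted p of 0.05 in limma in any of the 6 comparisons, with medians of 0.06 in DOPA, -0.20 in HFS and -0.08 in DOPA/HFS. Among them Pcsk4 had the largest DOPA/HFS difference, -0.51 ± 0.28 (SE), which was -0.69 with an unadjusted p under 0.05 without DOPA/HFS 3. The granin relatives and the convertase inhibitor, Vgf, Gnas and Pcsk1n, also gave no unadjusted p under 0.05. Vgf, a granin-like precursor, was at 15.58, 15.37 and 15.31 in 6-OHDA and 15.52, 15.86 and 15.55 in DOPA, overlapping ranges with a difference of 0.22 ± 0.16 (SE). Of 7 other processing enzymes, 0 were called, and for Ctsl, the protease cathepsin L, the L-DOPA main effect of 0.22 ± 0.10 (SE) had an unadjusted p of 0.0471 in limma, which was not under 0.05 without DOPA/HFS 3 (0.18).

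Of 13 tested genes of dense-core vesicle assembly and release, 0 were called, with medians of 0.13 in DOPA, 0.05 in HFS and 0.06 in DOPA/HFS. Ptprn, a membrane protein of the dense-core vesicle, gave 13.65, 12.96 and 13.65 in 6-OHDA and 13.84, 13.85 and 14.06 in DOPA. The groups do not overlap, as held in the same direction for 3.17% of all genes, and the difference was 0.50 ± 0.20 (SE) at an adjusted p of 1 in limma. Slc18a2, the vesicular monoamine transporter, gave 6.10, 6.50 and 6.77 in 6-OHDA and 5.02, 5.52 and 5.73 in DOPA, a difference of -1.03 ± 0.45 (SE) at an adjusted p of 1 in limma. In HFS it gave 5.61, 5.95 and 5.85, a difference of -0.65 ± 0.45 without overlap, as held in that direction for 2.34% of all genes. In DOPA/HFS the difference was -0.84 ± 0.45. Its unadjusted p in limma was under 0.05 without DOPA/HFS 1 but not with all arrays or without DOPA/HFS 3. The probe of Slc18a2 was well above background on 11 of the 12 arrays. Of 10 peptidases that degrade released peptides, 0 were called, and Lnpep, a membrane aminopeptidase, gave 5.44, 5.44 and 5.65 in 6-OHDA and 5.03, 4.60 and 4.66 in DOPA/HFS, a difference of -0.75 ± 0.21 (SE) at an adjusted p of 1 in limma. Its probe was well above background on 10 of the 12 arrays, with DOPA/HFS 3 among those where it was not. The DOPA/HFS difference was -0.88 without DOPA/HFS 1 and -0.70 without DOPA/HFS 3. The interaction for Lnpep was -0.71 ± 0.29 (SE), also at an adjusted p of 1, and became -0.84 and -0.66 without these arrays, with an unadjusted p no longer under 0.05 in the latter case. Qpct, Syt7 and Sytl4 did not pass the filter on dim probes, and no probe was found under the name Baiap3.

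The tissue label was checked with marker lists. The 10 projection neuron markers, which include Ppp1r1b, Drd1, Drd2, Adora2a and the peptide precursors Penk and Tac1, were all tested. The linear signal summed over the 9 of them with a value on every array was 206000 to 281000 in 6-OHDA, 229000 to 264000 in DOPA, 235000 to 260000 in HFS and 222000 to 250000 in DOPA/HFS, ranges that all overlap. Penk had the highest signal in these sums, which therefore follow this precursor more than any other marker. In DOPA, where Scg2 and Pcsk2 were higher, 0 of the 10 markers passed an unadjusted p of 0.05 in limma. The interneuron, astrocyte, oligodendrocyte and microglia sums also overlap between every treated group and 6-OHDA.

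The choroid plexus list stood higher in HFS than in 6-OHDA, and the endothelial and cortical lists are given after it. Of 10 choroid plexus markers, Kl, Slc4a5 and Kcne2 did not pass the filter on dim probes, and Clic6 and Kcnj13 were well above background on only 5 of the 12 arrays, all HFS arrays among them, so that they passed the filter through the group in which they were high. The 7 that were tested all had an unadjusted p under 0.05 in the higher direction in HFS, as did 1.21% of all genes. The sum over the 6 with a value on every array was 4300 to 89100 there against 262 to 393 in 6-OHDA, 229 to 16500 in DOPA and 275 to 919 in DOPA/HFS. Ttr, the transthyretin gene, was at 16.30, 11.86 and 15.28 in HFS, so that HFS 1 and HFS 3, the HFS arrays with the lower Chgb, carried more Ttr than HFS 2, and its part in the Chgb values was not tested. In DOPA, Ttr was at 10.29 on DOPA 2 and 13.81 on DOPA 3 and was not well above background on DOPA 1, while Scg2 was at 12.96, 13.01 and 12.81 on DOPA 1, 2 and 3. Its part in the Scg2 values was not tested. The endothelial sum, over 5 genes, was 8050 to 9640 in DOPA against 7080 to 7270 in 6-OHDA, without overlap, although 0 of 6 endothelial markers had an unadjusted p under 0.05. Most of this sum is the signal of Cldn5, at 12.76 to 12.78 in 6-OHDA and 12.94 to 13.20 in DOPA. The groups did not overlap in that direction for 3.17% of all genes, and the other endothelial markers overlap. The part of endothelium in the DOPA values was not tested. The cortical sum was 773 to 2550 in DOPA and 817 to 1640 in 6-OHDA, with the highest Slc17a7 and Neurod6 of the DOPA arrays on DOPA 3 (7.75 and 10.05). Of the 6-OHDA arrays 6-OHDA 1 had the highest values of both (7.51 and 9.49), and of the HFS arrays HFS 3 did (7.76 and 8.49).

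Immediate early genes, transcripts induced by neuronal activity, were described over 11 tested genes. For the L-DOPA main effect, 7 of 11 had an unadjusted p under 0.05 in limma in the lower direction (1.49% of all genes), among them Fos, Junb and Arc, with a median of -0.58 over the list, while the median over all genes was -0.02. Without DOPA/HFS 1 these were 6 of 11, without Arc. In DOPA against 6-OHDA, where Scg2 differed most, only Btg2 and Fos had an unadjusted p under 0.05 in the lower direction, 2 of 11 against 1.27% of all genes, and Nr4a3 and Nr4a1 gave 0.53 ± 0.26 and 0.52 ± 0.46 (SE). Nr4a3, among the 7, differed by 1.55 ± 0.26 (SE) in HFS and had an interaction of -2.04 ± 0.36 (SE). In HFS 1 was higher (Nr4a3) and 1 lower (Btg2), against 1.21% and 1.14% of all genes, and the lowest adjusted p among these genes was 0.865 in limma. Their part in the values of the members was not tested.

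The genes whose log2 signal ran most like that of a member over the 12 arrays are given as a description. All pairs share the same arrays, and the coefficients were the highest among 18359 genes. For Scg2 these were a transcript without a gene symbol, with a Pearson r of 0.93, the potassium channel subunit gene Kcnab3, with 0.918, and the neurotrophin receptor gene Ngfr, with 0.909. Kcnab3 was at 8.23, 7.60 and 7.99 in 6-OHDA and 8.90, 9.01 and 8.66 in DOPA. Ngfr was at 5.79, 5.17 and 5.71 in 6-OHDA and 8.67, 9.81 and 7.36 in DOPA. Both genes were thus higher on every DOPA array than on any 6-OHDA array. They had been picked for running like Scg2 over these same arrays, so this likeness was favoured by the choice and is no separate support. Ngfr had a larger spread among the DOPA arrays than Scg2.

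For Pcsk2 the most similar named genes were Rxrg, a retinoid receptor, with 0.917, and Sema4f, with 0.916. Rxrg was at 14.51, 14.34 and 14.57 in 6-OHDA and 14.66, 14.86 and 14.79 in DOPA. Like Pcsk2 it was lowest on 6-OHDA 2, a likeness favoured by the way it was picked. The glycolytic enzyme gene Pgk1 was most like Cpe, with 0.928, and Ube2q was most like Pam, with 0.951. Clpb, with 0.897, was the named gene most like Pcsk1, and Aqp11, with 0.861, was a named gene like Scg5. For Chgb and Scg3 the closest features had no gene symbol, and Chga was left out because it lacked a value on HFS 3.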

How the data were processed

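The authors deposited scanner output of 12 arrays with spot intensity values, background-subtracted by Agilent Feature Extraction 9.1 per the labels, and a table of log2 values that they quantile normalized. Here the processed intensities, without 1639 control spots and outlier spots, were taken to log2, quantile normalized and averaged per probe. Kept were probes whose spots were well above background on a share of 0.4 or more of the arrays, and the brightest probe stood for its gene. Names in 10735 probes were updated through the GRCr8 gene table, from which no position was used. limma 3.58.1 (lmFit and eBayes, R 4.3.3) was fitted to all arrays and tested on simulated data. The fold limits are those of the study's methods. The authors used SAM with a false discovery rate set per comparison and a Wilcoxon test in place of limma with a single adjusted p limit. The number of arrays limits the precision.

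The members and lists were chosen with earlier results of these data known. Named were all members, listed genes with an unadjusted p under 0.05 or among the 2 largest changes of a list, and the 3 genes of most similar pattern per member. Rxrg, Kcnab3, Penk, Vgf and others named with values fall under this rule or were chosen after their values were seen. Alternatives covered scaling, background, the deposited log2 table, filters, probes, outlier spots, the replicate number, the arrays fitted, thresholds and single arrays. Protein sequences were not used here. A listed gene is not reported here.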

Additional observations from a re-analysis of the deposited data

Results flagged for a closer look

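For Chgb the L-DOPA difference had opposite signs without and with stimulation. All 3 DOPA arrays lay below the mean of the 6-OHDA arrays, 16.66, and all 3 DOPA/HFS arrays lay above the mean of the HFS arrays, 16.26. The difference between the L-DOPA differences was 0.27 ± 0.25 (SE, log2 scale) with an interval of -0.29 to 0.83 and an adjusted p of 1 in limma. The interval includes 0, so whether stimulation alters the L-DOPA difference of Chgb was not resolved. Without stimulation that difference was -0.05 ± 0.18 (SE), and it ran from -0.13 to 0.06 over the alternatives, so its sign was not settled.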

How the results depend on the processing

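No member was called under any alternative, including an adjusted p under 0.05 and no fold limit. Scg2 kept its direction throughout, at 0.85 to 1.09 in DOPA (adjusted p 0.594 to 1 in limma), 0.62 to 0.81 for the L-DOPA main effect (0.219 to 1) and 0.39 to 0.74 in DOPA/HFS, and its unadjusted p stayed under 0.05 in the first 2. That of Pcsk2 in DOPA did not when the arrays compared were fitted alone or without 6-OHDA 1, 6-OHDA 2, DOPA 2 or DOPA 3, nor that of Chgb in HFS with normexp, with outlier spots kept, with the arrays compared alone and without several single arrays, nor that of Scg2 in DOPA/HFS with outlier spots kept or without 6-OHDA 2 or DOPA/HFS 2. Without single arrays an unadjusted p under 0.05 was also gained by Pcsk1 in HFS, DOPA and the interaction (without 6-OHDA 1), by Chga in DOPA and the interaction, Pam in DOPA/HFS and Pcsk2 for the L-DOPA main effect (without 6-OHDA 3), beside the gains given above for Chgb, Pcsk2 and Scg2. Signs turned as follows, and the cause was not tested. Scaling to the 75th percentile gave 0.00 for Pam and -0.09 for Scg3 in HFS and 0.06 for Scg5 in DOPA. Normexp gave 0.04 for Scg5 and 0.03 for Chgb in DOPA. The deposited log2 table gave 0.03 for Scg5 in DOPA and -0.02 for Pcsk1 in DOPA/HFS, where keeping outlier spots gave -0.08. The mean of all probes gave 0.02 for Scg5 in HFS, 0.04 for Scg3 in DOPA, and 0.08 for Chga, 0.17 for Scg3 and 0.11 for Scg5 in DOPA/HFS. Keeping outlier spots and the deposited table moved the median of all genes in DOPA/HFS to -0.14 and -0.12.

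Leaving out single arrays turned signs within these ranges. In HFS they were -0.04 to 0.32 for Pam, -0.04 to 0.25 for Scg2, -0.01 to 0.10 for Scg3 and -0.11 to 0.03 for Scg5. In DOPA they were -0.13 to 0.06 for Chgb, -0.01 to 0.35 for Pam, -0.11 to 0.00 for Scg3 and -0.10 to 0.02 for Scg5. In DOPA/HFS they were -0.20 to 0.07 for Chga, -0.02 to 0.19 for Cpe, -0.04 to 0.36 for Pcsk1, -0.01 to 0.46 for Pcsk2, -0.21 to 0.05 for Scg3 and -0.11 to 0.02 for Scg5. Over all genes and alternatives the calls ran from 0 to 3 in HFS, 0 to 13 in DOPA, 0 to 3 in DOPA/HFS, 1 to 28 for the L-DOPA main effect, 0 to 1 for the HFS main effect and 0 to 1 for the interaction, with 13 and 28 reached without DOPA/HFS 1. Arrays of the same replicate number lay on the same slide, and 10 of 18 such pairs deviated together at r over 0.1 (range -0.287 to 0.476). With the replicate number as a block, 0 members were called, and Scg2 gave 0.97 in DOPA at an adjusted p of 1 and 0.73 for the L-DOPA main effect at 0.768 in limma.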
